A study of Homo sapiens with 10 samples.

Results

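The inhibitors of DNA binding (ID1, ID2, ID3 and ID4) and feedback genes of bone morphogenetic protein (BMP) signalling (SMAD6, SMAD7, SMAD9 and BAMBI) were followed in the human prostate cancer line C4-2, with and without stable overexpression of the scaffold protein β-arrestin 1 (ARRB1). These 8 genes, of 18664 genes named on the array, were read by all of their 12 probes, of 48801 probes. They were chosen by family and by the log2 differences of the ARRB1 lines from GFP cells, which were already in view, and ID1 and ID3 were among the genes lowest in those lines relative to GFP cells. Levels of the 8 genes in the ARRB1 lines are therefore given as a description, without a test.

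Total RNA was read on Illumina BeadChips, with 10 arrays in 4 groups. nucARRB1 cells (2 arrays) carried ARRB1 fused to the fluorescent protein AcGFP and tagged with nuclear localisation signals, and wtARRB1 cells (2 arrays) carried the AcGFP fusion without these signals. GFP cells (3 arrays) carried the empty AcGFP vector, and parental cells (3 arrays) were unmodified C4-2. The stable lines were made by nucleofection and kept under G418, cells received no treatment, and whether a line was 1 clone or a mixed population is not given in the sources used here. The coding sequence in both ARRB1 constructs was a humanised synthetic one.

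Values are log2 intensities after quantile normalisation, a scale on which every array had a median of 6.303 and a difference of 1 is a doubling. A gene with several probes is represented by the brightest one, by its mean over the 10 arrays. Arrays within a group correlated at 0.9818 to 0.9921. Of 8 prostate luminal markers measured, 7 lay above the 75th percentile of all probes, KRT18 highest, whereas 0 of 4 basal, 1 of 8 fibroblast, 1 of 8 endothelial and 1 of 5 blood cell markers did. The mean log2 of the luminal list was 9.39 to 9.66 in nucARRB1 cells, 9.64 to 9.73 in wtARRB1 cells, 9.04 to 9.29 in GFP cells and 9.21 to 9.34 in parental cells, and its part in the results was not tested. The endothelial list averaged 6.38 to 6.46 in nucARRB1, 6.49 to 6.5 in wtARRB1, 6.25 to 6.36 in GFP and 6.34 to 6.37 in parental cells, near the array median, and of its genes VWF was higher in wtARRB1 than in GFP cells by 0.57 (limma adjusted p = 0.00716). ARRB1 had 4 probes. The brightest, ILMN_1819608, gave 8.29 and 7.70 in nucARRB1, 7.71 and 7.64 in wtARRB1, 8.12, 8.58 and 8.61 in GFP, and 8.27, 8.47 and 8.43 in parental cells, so that it was lower in wtARRB1 than in GFP cells (log2 difference -0.76, limma adjusted p = 0.00714) and was not called in nucARRB1 cells (-0.44, adjusted p = 0.138). The other 3 probes were not called. Whether any of them reads the synthetic sequence was not tested, so ARRB1 does not check the labels. Parental replicate 1 and nucARRB1 replicate 1 stood somewhat apart from their groups, and values without them are given where they change a result.

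BMPs are secreted ligands that bind receptor kinases at the cell surface. The receptors phosphorylate SMAD1, SMAD5 and SMAD9, which join SMAD4, enter the nucleus and switch on target genes, of which the ID genes are the classic examples. ID proteins have a helix-loop-helix domain but no DNA-binding region, so they pair with basic helix-loop-helix (bHLH) factors and keep them off E-boxes in DNA; they are known for holding progenitor and tumour cells in a dividing, undifferentiated state. SMAD6, SMAD7 and BAMBI are induced by the same ligand family and restrain it, SMAD6 mainly the BMP arm and SMAD7 both the BMP and TGF-β arms, and BAMBI is a pseudoreceptor without a kinase. In RNA from a whole culture, fewer cells expressing a gene and less RNA per cell cannot be told apart.

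The 250 bases upstream of the start sites of ID1, ID2, ID3 and SMAD6 are shown because these 4 genes lay lower in both ARRB1 lines, and because SMAD binding sites are the usual link between BMP receptors and these promoters. Sequences are from RefSeq (GRCh38.p14), in which all 8 genes matched, and end at the base before the start site. Capitals mark matches, on either strand, to GTCTAGAC (a palindromic SMAD box), GGCGCC (a GC-rich SMAD site), GTCTG (a single SMAD box), CANNTG (the E-box), TGACGTCA (the cAMP response element), CCAAT and TATAAA. The regions are chr20:31605039-31605288 on the plus strand for ID1, chr2:8681806-8682055 on the plus strand for ID2, chr1:23559502-23559751 on the minus strand for ID3 and chr15:66701986-66702235 on the plus strand for SMAD6.
ID1: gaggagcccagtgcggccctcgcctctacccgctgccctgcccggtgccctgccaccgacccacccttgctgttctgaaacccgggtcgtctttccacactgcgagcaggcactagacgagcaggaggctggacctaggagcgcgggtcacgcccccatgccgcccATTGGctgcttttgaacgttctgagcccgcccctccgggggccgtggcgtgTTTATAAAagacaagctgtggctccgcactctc
ID2: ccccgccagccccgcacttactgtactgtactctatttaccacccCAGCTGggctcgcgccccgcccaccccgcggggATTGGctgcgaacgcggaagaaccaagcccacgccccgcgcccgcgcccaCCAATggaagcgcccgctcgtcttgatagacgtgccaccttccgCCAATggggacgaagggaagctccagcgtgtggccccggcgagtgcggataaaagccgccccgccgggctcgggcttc
ID3: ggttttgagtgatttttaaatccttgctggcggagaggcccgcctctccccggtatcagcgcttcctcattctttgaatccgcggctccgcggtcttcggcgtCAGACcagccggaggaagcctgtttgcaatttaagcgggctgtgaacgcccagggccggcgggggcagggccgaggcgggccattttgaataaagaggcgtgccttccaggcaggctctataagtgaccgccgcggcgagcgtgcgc
SMAD6: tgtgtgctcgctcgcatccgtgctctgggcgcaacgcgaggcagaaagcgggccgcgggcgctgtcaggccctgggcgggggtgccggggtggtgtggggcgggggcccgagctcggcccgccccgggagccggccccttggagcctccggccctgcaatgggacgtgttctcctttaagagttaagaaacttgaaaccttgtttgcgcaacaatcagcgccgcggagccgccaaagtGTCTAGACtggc

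The SMAD6 promoter held 1 palindromic SMAD box, starting 12 bases upstream of the start site, a word found in 0.182% of 35116 promoters of this length. ID3 held 1 single SMAD box 147 bases upstream (38% of promoters hold one), printed as its reverse complement. ID2 held 1 E-box 205 bases upstream (61.8% of promoters) and 3 CCAAT boxes (32%), and ID1 held 1 CCAAT box 84 bases upstream and a pair of overlapping TATAAA matches about 30 bases upstream (10.7%). Neither GTCTAGAC nor GGCGCC occurred in this window of ID1, ID2 or ID3, and TGACGTCA (1.65% of promoters) occurred in none of the 8 genes. Of the genes not printed, BAMBI held 3 GGCGCC matches (16.4% of promoters hold one) and 2 single SMAD boxes. ID4 held 1 single SMAD box, and the 3 promoters matched to SMAD7 held 2, 1 and 0. These are matches of letters in a short window, and BMP-responsive elements of ID genes are known to lie farther upstream as well.

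ID1, the member best known as an immediate BMP target, showed one of the deepest differences. Its brightest probe gave 7.85 and 7.55 in nucARRB1 cells and 7.15 and 7.33 in wtARRB1 cells, against 10.68, 10.22 and 10.22 in GFP cells and 9.83, 10.30 and 10.22 in parental cells. All 4 ARRB1 arrays lay more than 1 log2 unit below all 6 control arrays. The log2 difference from GFP was -2.67 ± 0.163 (SE) in nucARRB1 and -3.13 ± 0.163 in wtARRB1 cells, that is 6.38-fold and 8.77-fold lower. Ranked from the lowest difference over all named genes, ID1 stood at 14 in nucARRB1 and at 1 in wtARRB1 cells. Set against parental cells, ID1 was 5.35-fold lower in nucARRB1 and 7.36-fold lower in wtARRB1 cells. The other ID1 probe, ILMN_1665832, read near the low end of the scale, with 6.91 and 6.35 in nucARRB1, 6.38 and 6.25 in wtARRB1, 7.22, 6.81 and 6.76 in GFP, and 7.10, 6.66 and 6.88 in parental cells. It differed from GFP by -0.30 in nucARRB1 and -0.62 in wtARRB1 cells, so that the mean of both probes gave -1.49 and -1.88 for the 2 lines in that order.

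ID3, which sits with ID1 among the earliest BMP responses, had a like difference. It gave 7.87 and 8.47 in nucARRB1 and 8.37 and 8.48 in wtARRB1 cells, against 11.31, 10.94 and 10.98 in GFP and 10.56, 10.76 and 10.85 in parental cells. The ARRB1 and control arrays were again far apart. ID3 was 7.50-fold lower than GFP in nucARRB1 (log2 difference -2.91 ± 0.161, rank 6 from the lowest) and 6.28-fold lower in wtARRB1 cells (-2.65 ± 0.161, rank 2). Against parental cells the folds were 5.87 and 4.92, again nucARRB1 before wtARRB1. The array has 1 named ID3 probe, so no other probe could be set beside it.

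ID2, which has further inputs besides BMP, including MYC, was lower by less. Probe ILMN_2086095 gave 8.36 and 8.77 in nucARRB1 and 8.11 and 7.66 in wtARRB1 cells, against 9.98, 9.40 and 9.24 in GFP and 9.08, 9.27 and 9.29 in parental cells. The groups did not overlap, although the gap between nucARRB1 replicate 2 and the lowest control array was small. ID2 was 1.97-fold lower than GFP in nucARRB1 (-0.97 ± 0.19) and 3.15-fold lower in wtARRB1 cells (-1.65 ± 0.19). Probe ILMN_1793990 gave close values, -0.90 and -1.45 for the same comparisons. Relative to parental cells ID2 differed by -0.65 in nucARRB1 and by -1.33 in wtARRB1 cells, and the nucARRB1 difference was not past the false discovery rate of 1% used for all genes on either probe. Without nucARRB1 replicate 1 the difference of nucARRB1 from GFP was -0.77.

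ID4, the member that in prostate is known for opposing the other IDs, read below the array median in every group and gave no usable level. Its probe gave 6.05 and 6.21 in nucARRB1, 6.10 and 6.21 in wtARRB1, 5.84, 5.95 and 6.18 in GFP, and 6.16, 5.99 and 6.08 in parental cells. The groups overlapped, and the differences from GFP were 0.14 and 0.16.

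**Figure D1:**
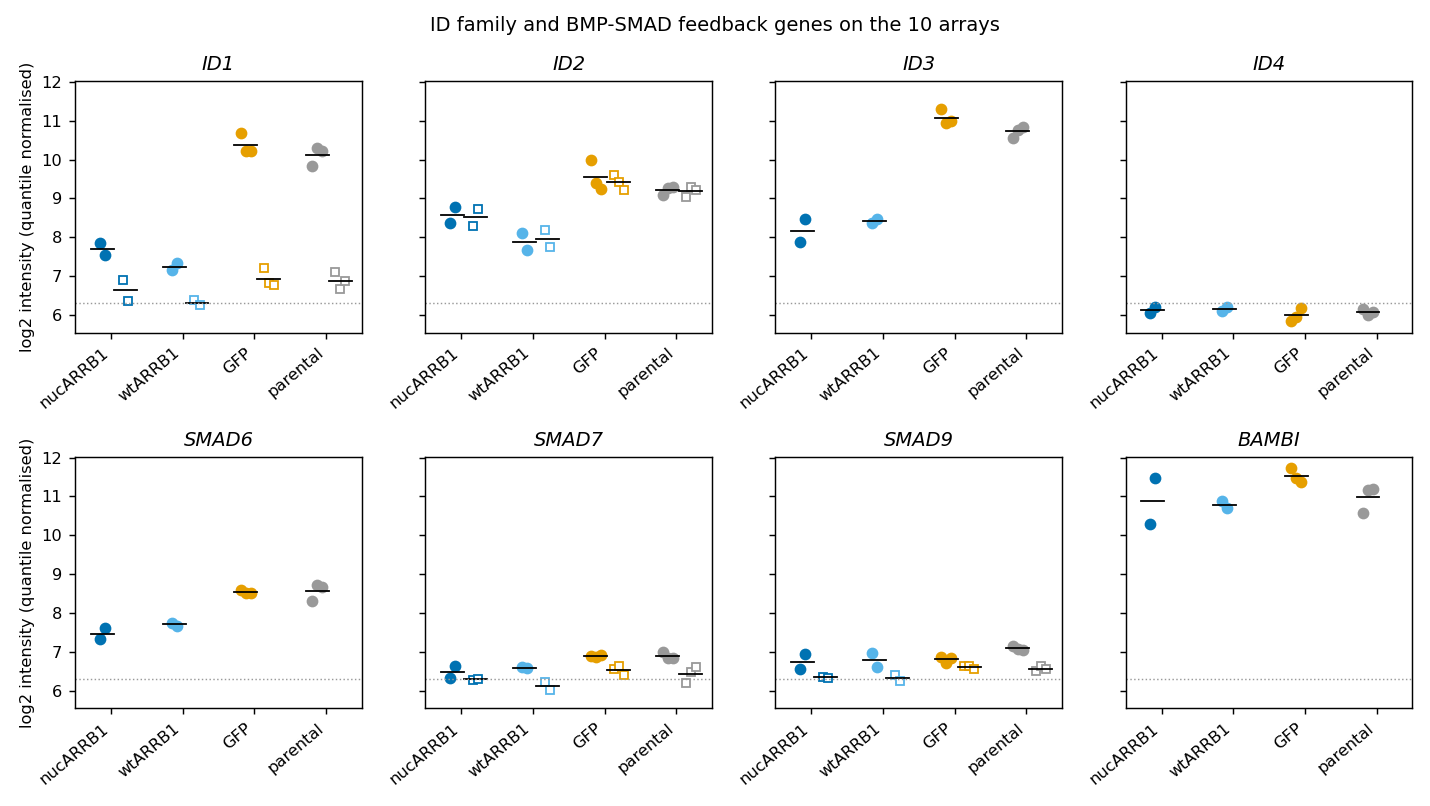
Log2 intensity (y axis, quantile normalised) of the 8 genes on the 10 arrays, by group (x axis); filled circles are the brightest probe, hollow squares the other probe where there is one, short bars the group means and the dotted line the array median. ID1 and ID3 read 7.15 to 8.48 in the ARRB1 lines and 9.83 to 11.31 in the controls, whereas ID4 stayed below the median line.

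SMAD6, the inhibitory SMAD of the BMP arm, lay lower in both ARRB1 lines. It gave 7.32 and 7.61 in nucARRB1 and 7.73 and 7.67 in wtARRB1 cells, against 8.60, 8.52 and 8.52 in GFP and 8.31, 8.71 and 8.67 in parental cells. The GFP arrays agreed closely, and no ARRB1 array reached a control array. SMAD6 was 2.11-fold lower than GFP in nucARRB1 (-1.08 ± 0.131, rank 306) and 1.79-fold lower in wtARRB1 cells (-0.84 ± 0.131, rank 429). The differences from parental cells were nearly the same, -1.10 and -0.86.

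SMAD7, which blocks both arms by occupying receptors and bringing ubiquitin ligases to them, differed little. Its brighter probe gave 6.33 and 6.62 in nucARRB1 and 6.60 and 6.59 in wtARRB1 cells, against 6.88, 6.86 and 6.91 in GFP and 7.0, 6.85 and 6.85 in parental cells. Every ARRB1 array was below every control array, but by less than 1 log2 unit and on a probe close to the low end of the scale. The differences from GFP were -0.41 ± 0.113 in nucARRB1 and -0.29 ± 0.113 in wtARRB1 cells, and probe ILMN_2203896 gave -0.24 and -0.40.

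SMAD9 is the BMP transducer that is itself a BMP target and signals weakly. Its brighter probe gave 6.55 and 6.95 in nucARRB1, 6.98 and 6.62 in wtARRB1, 6.87, 6.71 and 6.84 in GFP, and 7.14, 7.08 and 7.05 in parental cells. The ARRB1 arrays overlapped the GFP arrays, with differences of -0.06 ± 0.134 and -0.01 ± 0.134. Probe ILMN_1815385 differed by -0.27 and -0.29, and the probes thus disagreed on a gap that is small on either.

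BAMBI, the pseudoreceptor, varied more between replicates than any of the inhibitors above. It gave 10.28 and 11.48 in nucARRB1 and 10.87 and 10.71 in wtARRB1 cells, against 11.73, 11.47 and 11.37 in GFP and 10.57, 11.16 and 11.20 in parental cells. The nucARRB1 arrays reached from below all controls into the GFP range. The difference from GFP was -0.64 ± 0.254 in nucARRB1 cells. It was -0.04 without nucARRB1 replicate 1 and -1.24 without nucARRB1 replicate 2, so the 2 nucARRB1 arrays decide it. In wtARRB1 cells it was -0.73 ± 0.254 from GFP but -0.19 from parental cells.

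By the threshold used for all genes (limma, Benjamini-Hochberg false discovery rate of 1% over all probes), ID1, ID2, ID3 and SMAD6 were on the lower side in both lines, 4 of the 8 genes, where 5.89% of all genes were called lower in nucARRB1 and 4.7% in wtARRB1 cells. Since the 8 genes were proposed from these comparisons, nothing is read from that count. With parental cells as the control the count was 3 of 8 in nucARRB1 cells, where ID2 was no longer past the threshold (3.56% of all genes were called lower), and 4 of 8 in wtARRB1 cells (2.39%). Groups that did not overlap, with the ARRB1 line lower, were seen for 5 of the 8 in nucARRB1 (21.1% of all genes) and for 6 in wtARRB1 cells (20.3%). Against parental cells the groups were apart in this way for 6 of the 8 in each line, beside 19.5% of all genes for nucARRB1 and 18% for wtARRB1.

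**Figure D2:**
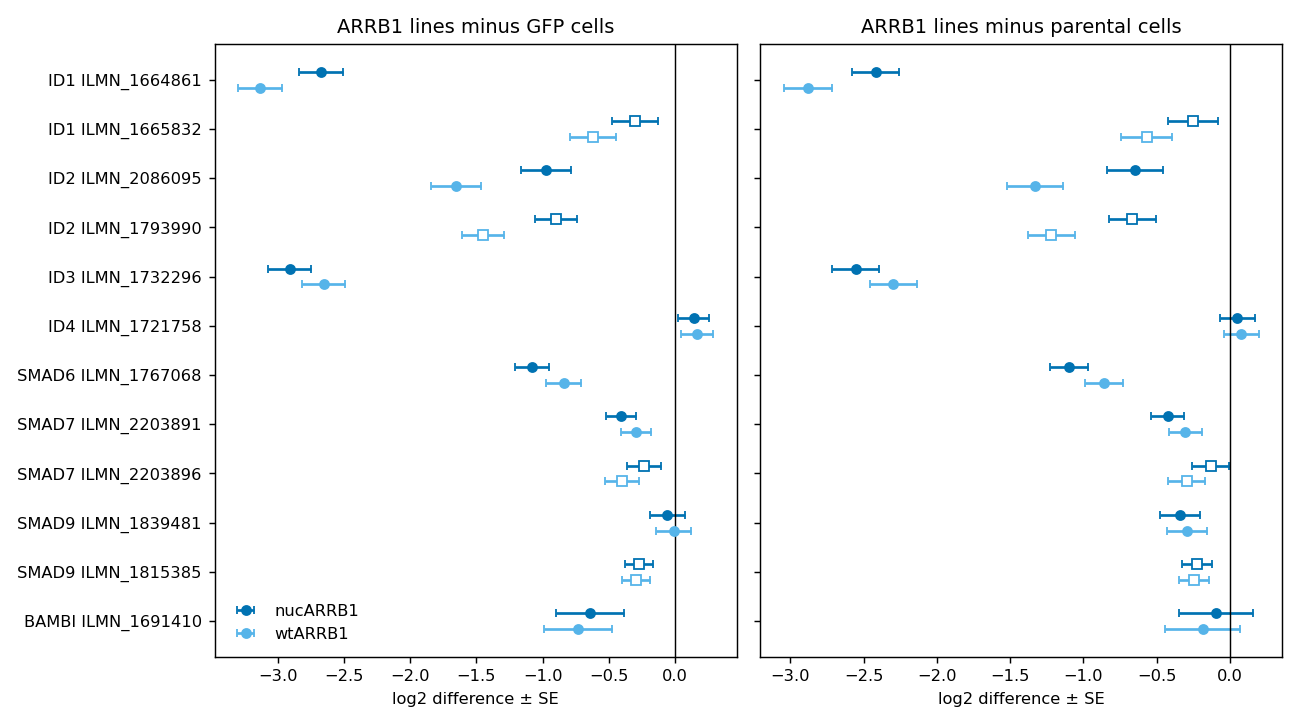
Log2 difference (x axis, bars are SE) of nucARRB1 and wtARRB1 cells from GFP cells (left) and from parental cells (right) for each of the 12 probes (y axis); filled circles are the brightest probe of a gene and hollow squares the other probe. ID1 and ID3 lie between -2.30 and -3.13 on their brightest probes in both panels, ID2 and SMAD6 between -0.65 and -1.65, and BAMBI moves towards 0 when parental cells are the control.

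The 2 ARRB1 lines, nucARRB1 and wtARRB1, were also compared directly. The paper reports wtARRB1 in both cytoplasm and nucleus, so this contrast does not set nuclear against non-nuclear ARRB1. Levels of the constructs were not compared here, so a difference could not be assigned to location. None of the 8 genes passed the threshold, and of all genes 12 did, or 0.0643%. At an unadjusted p below 0.05 there were ID1 and ID2. ID2 was higher in nucARRB1 than in wtARRB1 cells by 0.68 (95% interval 0.24 to 1.12, limma adjusted p = 0.367) on one probe and by 0.55 (0.18 to 0.93, adjusted p = 0.383) on the other, and the arrays of both lines were apart on both. ID1 was higher by 0.46 (0.08 to 0.84, adjusted p = 0.559). ID3 and SMAD6 leaned the other way, by -0.26 (-0.63 to 0.12, adjusted p = 0.847) and -0.24 (-0.54 to 0.07, adjusted p = 0.805), although the ID3 arrays overlapped. BAMBI differed by 0.09 with a wide interval of -0.50 to 0.68. The arrays of both lines were apart for 3 of the 8 genes, where 32.1% of all genes were, as 2 arrays against 2 often are. The intervals reached 1.12 for ID2 and 0.84 for ID1, so these arrays do not show that the lines were alike.

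GFP cells were compared with parental cells, from which the vector, transfection and G418 selection set them apart. Other differences between the cell lines or cultures also enter this contrast and cannot be told apart from these. None of the 8 genes passed the threshold, which 9 of all genes did (0.0482%). ID3, SMAD9 and BAMBI had an unadjusted p below 0.05. ID3 was higher in GFP than in parental cells by 0.35 (0.05 to 0.66, limma adjusted p = 0.604), ID2 by 0.33 (-0.03 to 0.69, adjusted p = 0.754) and ID1 by 0.25 (-0.05 to 0.56, adjusted p = 0.802). BAMBI had the widest gap, 0.55 (0.06 to 1.03, adjusted p = 0.62), and SMAD9 differed by -0.28 (-0.54 to -0.03, adjusted p = 0.634), on 1 of its 2 probes. SMAD6 and SMAD7 differed by -0.02 and -0.01. GFP and parental arrays were apart for 3 of the 8 genes, where 17% of all genes were.

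The 6 control arrays also differed among themselves. GFP replicate 1 had the highest ID1, ID2, ID3 and BAMBI of the 6, and parental replicate 1 the lowest. Across these 6 arrays Pearson's r was 0.91 between ID1 and ID3, 0.91 between ID1 and ID2, and 0.94 between ID3 and BAMBI. Other feedback genes did not vary with the ID genes in this way. SMAD6 gave 0.67 with ID1, 0.34 with ID2 and 0.38 with ID3. For ID1, r was -0.62 with SMAD7 and -0.44 with SMAD9. ID4, whose probe read below the array median, gave -0.8 with ID1, and nothing is read from that value. Over all 10 arrays, which fall into an ARRB1 and a control cluster, r was 0.97 for ID1 with ID3 and 0.94 for ID1 with SMAD6, but 0.59 for ID3 with BAMBI. These are descriptions over few arrays that share their groups and hybridisation. BAMBI thus varied with ID1, ID2 and ID3 among controls, and did not share the depth of the ID1 and ID3 difference in the ARRB1 lines.

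The rest of the pathway was read from 10 lists with 128 measured genes, ordered here from ligand to target. In nucARRB1 cells 3 rose and 5 fell relative to GFP, 6.25% of the lists, where 10.9% of all genes were called. In wtARRB1 cells 2 rose and 7 fell, 7.03%, where 8.96% of all genes were called. The median log2 difference of the lists was 0.02 in nucARRB1 (all genes -0.01) and 0.01 in wtARRB1 cells (all genes 0). Of the 128 genes, 57 read at or below the array median, where a change would be compressed or missed. Without nucARRB1 replicate 1 there were 4 rises and 2 falls in nucARRB1 cells. Without wtARRB1 replicate 1, wtARRB1 replicate 2 or GFP replicate 1 the count in wtARRB1 cells was 5, 3 and 6, and without nucARRB1 replicate 1 and parental replicate 1 together it was 15. In the comparison of nucARRB1 with wtARRB1 none of the 128 was called by limma and 12 had an unadjusted p below 0.05, and for GFP against parental none was called and 7 did.

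Ligands, receptors and transducers were not called in either line. Among 13 BMP ligands, of which 10 read at or below the array median, BMP4 differed from GFP by 0.48 in nucARRB1 (limma adjusted p = 0.0357) and 0.03 in wtARRB1 cells, and BMP7 by 0.26 and 0.56 (adjusted p = 0.753 and 0.309). At an unadjusted p below 0.05 were 2 ligands in nucARRB1 and 0 in wtARRB1 cells. Of 10 receptors and co-receptors, the type II receptor BMPR2 differed by 0.18 and -0.14, and the type I receptor ACVR1 by 0.14 and -0.14. The co-receptor RGMB, also not called, lay above the GFP arrays in both lines. It gave 7.65 and 7.17 in nucARRB1 and 7.68 and 7.36 in wtARRB1 cells, against 7.06, 6.82 and 7.13 in GFP cells. Of the 10, 2 had an unadjusted p below 0.05 in nucARRB1 and 1 in wtARRB1 cells. SMAD5, the BMP transducer with a clear signal here, gave 9.95 and 9.97 in nucARRB1 and 10.22 and 10.22 in wtARRB1 cells, against 10.16, 10.31 and 10.15 in GFP cells. Its difference from GFP was -0.24 (95% interval -0.47 to -0.01, limma adjusted p = 0.244) in nucARRB1 and 0.02 (-0.21 to 0.24) in wtARRB1 cells. SMAD4, the partner common to all receptor SMADs, differed by 0.24 and 0.12. SMAD1 read 6.32 and 6.33 in nucARRB1 and 6.33 and 6.33 in wtARRB1 cells, close to the array median. Of the 5 transducers, 3 had an unadjusted p below 0.05 in nucARRB1 and 0 in wtARRB1 cells. The 14 extracellular antagonists, proteins such as follistatin that trap ligands, also had none called, with 2 and 3 at an unadjusted p below 0.05.

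Regulators inside the cell held 3 called genes of 17. STUB1, the ubiquitin ligase CHIP, which is known to mark SMADs among many other clients for degradation, gave 10.10 and 10.58 in nucARRB1 and 10.59 and 10.58 in wtARRB1 cells, against 11.60, 11.21 and 11.38 in GFP and 10.93, 11.04 and 11.17 in parental cells. It fell by 1.06 in nucARRB1 (limma adjusted p = 0.000143) and by 0.81 in wtARRB1 cells (adjusted p = 0.00168), with the other probe at -1.04 and -0.63 (adjusted p = 0.000264 and 0.0155). TGIF1, a homeodomain corepressor of SMAD2 and SMAD3, gave 9.53 and 9.20 in nucARRB1 and 8.88 and 8.95 in wtARRB1 cells, against 8.33, 8.56 and 8.63 in GFP cells. It rose by 0.86 in nucARRB1 (adjusted p = 0.000248) and was not called in wtARRB1 cells (0.41, adjusted p = 0.0595), a contrast between lines that was not itself called. TOB1, an antiproliferative protein that represses BMP-activated SMADs in mouse osteoblasts, rose by 0.72 in nucARRB1 (adjusted p = 0.00125) and by 0.82 in wtARRB1 cells (adjusted p = 0.000547). With arrays scaled to a common median in place of quantile normalisation TOB1 was no longer called, at 0.50 (adjusted p = 0.0466) and 0.55 (adjusted p = 0.0306). Without normalisation between arrays TGIF1 was not called in nucARRB1 (0.67, adjusted p = 0.0227), nor TOB1 in either line (adjusted p = 0.104 and 0.162). In wtARRB1 cells the STUB1 call was lost without wtARRB1 replicate 1, wtARRB1 replicate 2 or GFP replicate 1 (adjusted p 0.0105 to 0.0166), and the TOB1 call without wtARRB1 replicate 1 (0.0146).

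Other known BMP targets were mostly not called, but 8 of the 16 read at or below the array median, where a change would be compressed or missed. Of 16 measured, GATA2 alone fell in nucARRB1 cells, and none was called in wtARRB1 cells, where 3 had an unadjusted p below 0.05. GATA2, a zinc finger transcription factor, gave 8.61 and 9.09 in nucARRB1 and 9.23 and 8.99 in wtARRB1 cells, against 9.87, 9.45 and 9.73 in GFP and 9.35, 9.49 and 9.63 in parental cells. The difference was -0.83 in nucARRB1 (limma adjusted p = 0.00175) and -0.57 in wtARRB1 cells (adjusted p = 0.0292), and the nucARRB1 call was lost without nucARRB1 replicate 1, GFP replicate 1 or GFP replicate 3 (adjusted p 0.0105 to 0.0446). The Notch and BMP target HEY1 differed by -0.50 in nucARRB1 cells (limma adjusted p = 0.0157). HES1 differed by -0.55 in wtARRB1 cells (adjusted p = 0.0202). Both were short of the threshold, and both lay below the GFP arrays in both lines. HEY1 gave 6.43 and 6.40 in nucARRB1 and 6.39 and 6.53 in wtARRB1 cells, against 6.83, 6.99 and 6.92 in GFP cells. HES1 gave 6.52 and 6.80 in nucARRB1 and 6.58 and 6.55 in wtARRB1 cells, against 7.08, 6.96 and 7.31 in GFP cells.

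In the TGF-β and activin arm, 1 of 18 ligands and receptors fell in nucARRB1 cells, and 2 fell and 1 rose in wtARRB1 cells. LTBP3, which holds latent TGF-β in the matrix, gave 11.64 and 11.64 in nucARRB1 and 11.67 and 11.51 in wtARRB1 cells, against 12.15, 12.16 and 12.30 in GFP but 11.93, 11.75 and 11.87 in parental cells. It fell by 0.57 in nucARRB1 (limma adjusted p = 0.00226) and by 0.62 in wtARRB1 cells (adjusted p = 0.00152), and relative to parental cells it was not called (-0.21 and -0.26). The nucARRB1 call was lost without nucARRB1 replicate 1, nucARRB1 replicate 2 or GFP replicate 3 (adjusted p 0.0132 to 0.0201), the wtARRB1 call without wtARRB1 replicate 2 (0.0321), and its other 3 probes, close to the array median, were not called. GDF11, an activin-like ligand, fell by 0.65 in wtARRB1 cells (adjusted p = 0.00156), a call lost without wtARRB1 replicate 2 (0.0237). INHBE, an inhibin subunit that is also induced by amino acid stress, rose by 0.99 in wtARRB1 cells (adjusted p = 9.56e-05) and differed by 0.31 in nucARRB1 cells (adjusted p = 0.175).

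Among 9 TGF-β targets, CCN1 (CYR61), a matricellular protein, fell in both lines. It gave 7.50 and 6.68 in nucARRB1 and 6.82 and 6.90 in wtARRB1 cells, against 8.14, 8.19 and 8.63 in GFP and 7.10, 7.38 and 7.23 in parental cells. Relative to GFP it fell by 1.23 (limma adjusted p = 0.000427) and by 1.47 (adjusted p = 0.00014). Relative to parental cells the differences were -0.15 and -0.38 and were not called (adjusted p = 0.854 and 0.43), and GFP cells themselves read 1.08 above parental cells (adjusted p = 0.0229). THBS1, which activates latent TGF-β, fell by 0.87 in wtARRB1 cells (adjusted p = 0.004), a call lost without either wtARRB1 array, GFP replicate 1 or GFP replicate 2 (adjusted p 0.0208 to 0.0426).

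With parental cells as the control in place of GFP cells, 2 pathway genes rose and 4 fell in nucARRB1 cells (4.69%, where 6.64% of all genes were called), and 2 rose and 3 fell in wtARRB1 cells (3.91%, where 4.87% of all genes were called). Some of these were not called against GFP. HEY1, a Notch and BMP target, fell by 0.63 in nucARRB1 (limma adjusted p = 0.00459) and by 0.59 in wtARRB1 cells (adjusted p = 0.00963), and SNAI2, an epithelial-mesenchymal transition factor, fell by 0.61 in nucARRB1 cells (adjusted p = 0.00993). TGFBR3, the co-receptor betaglycan, fell by 0.55 (adjusted p = 0.00631) and by 0.59 (adjusted p = 0.00509), and FSTL1, a secreted follistatin-like protein, fell by 0.65 in wtARRB1 cells (adjusted p = 0.00817). Called against both controls, TGIF1 (0.83, limma adjusted p = 0.000638) and STUB1 (-0.71, adjusted p = 0.00603) kept their direction in nucARRB1 cells and INHBE (1.01, adjusted p = 0.000193) in wtARRB1 cells. The bHLH factor ASCL2, described below, was also called against both controls in nucARRB1 cells, higher in each. TOB1 (adjusted p = 0.0259 and 0.0104), GATA2 in nucARRB1 (0.0175), and STUB1 (0.0926), GDF11 (0.0134) and THBS1 (0.0285) in wtARRB1 cells were then not called, with the sign kept in each.

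The bHLH factors that ID proteins hold in check had 1 called gene of 20 in each line. ASCL2, a tissue-specific bHLH factor, rose by 1.25 in nucARRB1 cells (limma adjusted p = 0.00126), where it gave 9.96 and 10.12, against 9.01, 8.65 and 8.72 in GFP and 9.07, 8.22 and 7.99 in parental cells. In wtARRB1 cells it gave 9.83 and 9.58, a difference of 0.91 (adjusted p = 0.016). TCF3, which encodes the E proteins E12 and E47 and is the main partner of IDs, fell by 0.64 in wtARRB1 cells (adjusted p = 0.00365) and differed by -0.47 in nucARRB1 cells (adjusted p = 0.0274). The TCF3 call was lost without wtARRB1 replicate 2 or any 1 of the GFP arrays (adjusted p 0.0116 to 0.0743). The E proteins TCF12 and TCF4 differed by 0.14 and -0.56 in nucARRB1 cells (adjusted p = 0.73 and 0.0398). Against parental cells ASCL2 was called in both lines (1.62 and 1.28, adjusted p = 0.000282 and 0.00239) and TCF3 was not (adjusted p = 0.0183 in wtARRB1). Of the 20, 12 read at or below the array median.

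CDK inhibitors were included because IDs are known to keep several of them silent. CDKN2D, which encodes p19 (INK4D), was the 1 called gene of 6 and fell by 0.86 in nucARRB1 (limma adjusted p = 0.000995) and by 0.76 in wtARRB1 cells (adjusted p = 0.0034), on 1 of its 2 probes. The nucARRB1 call was lost without nucARRB1 replicate 1 (0.0203), and the wtARRB1 call without either wtARRB1 array, GFP replicate 2 or GFP replicate 3 (adjusted p 0.0141 to 0.0481). Against parental cells CDKN2D was not called (adjusted p = 0.0118 and 0.0415). CDKN1B, which encodes p27, gave 9.40 and 9.74 in nucARRB1 and 9.27 and 9.35 in wtARRB1 cells, against 8.41, 9.10 and 8.99 in GFP cells. Its differences of 0.74 (adjusted p = 0.0117) and 0.48 (adjusted p = 0.137) did not pass. CDKN2A, a repression target of ID1 in fibroblasts, differed by -0.37 (adjusted p = 0.031) and -0.44 (adjusted p = 0.0122), and CDKN1A by 0.32 in both lines (adjusted p = 0.769 and 0.786).

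**Figure D3:**
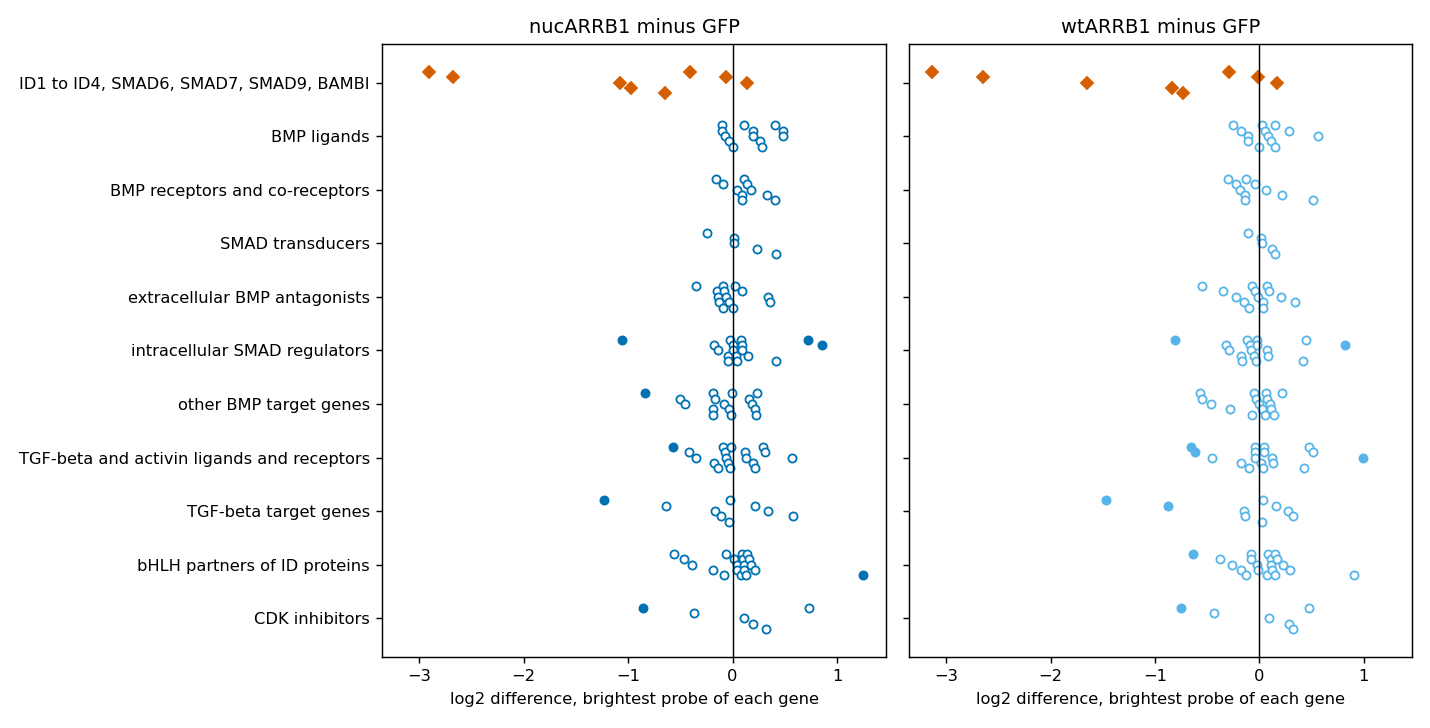
Log2 difference from GFP cells (x axis) of each gene, read by its brightest probe, in nucARRB1 (left) and wtARRB1 cells (right), by gene list (y axis); orange diamonds are the 8 ID and feedback genes, filled circles are list genes called at a false discovery rate of 1%, hollow circles those not called. Most of the 128 list genes lie close to 0, with medians of 0.02 and 0.01, and ID1 and ID3 lie to the left of all of them.

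The genes most like ID1 and ID3 in their pattern were sought by Pearson's r over the 10 arrays with the mean of the brightest ID1 and ID3 probes. Because the arrays fall into an ARRB1 and a control cluster, 657 of 18656 genes had r of at least 0.9 and 475 had r of at most -0.9, and r over the 6 control arrays is given beside it. The 6 most alike were RPA1 (0.995, controls 0.8905), which binds single-stranded DNA in replication, EPN3 (0.9912, 0.9179), an endocytic adaptor, TUBB (0.991, 0.5898) and TUBB4B (0.9906, 0.9212), β-tubulins, DNAJC9 (0.9899, 0.7219), a histone chaperone, and CCDC86 (0.9884, 0.8112). Most opposite were CCPG1 (-0.9931, controls -0.7661) and DNAJB9 (-0.993, -0.7316), which act at the endoplasmic reticulum, and NME5 (-0.99, -0.8526). RPA1 gave 9.81 and 9.80 in nucARRB1 and 9.72 and 9.84 in wtARRB1 cells, against 11.18, 10.88 and 10.88 in GFP and 10.74, 10.88 and 11.03 in parental cells. Ranked by Spearman's rho, 2 of the 6 stayed among the 100 most alike, so the choice of names depends on the measure.

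Markers of dividing cells and targets of the stress factor ATF4 moved on the same arrays. All 12 proliferation markers fell in nucARRB1 and 8 of 12 in wtARRB1 cells, and 9 and 11 of 12 ATF4 targets rose. Of all genes, 10.9% were called in nucARRB1 and 8.96% in wtARRB1 cells, counting both directions. Growth was not measured on these arrays, and the paper reports that both ARRB1 lines grew faster than control cells. The mean of the proliferation list relative to GFP was -2.61 and -1.62 on the nucARRB1 arrays and -1.77 and -1.08 on the wtARRB1 arrays, against -0.01 to 0.01 on GFP and -0.35 to -0.33 on parental arrays. The mean of ID1, ID2, ID3 and SMAD6 was -2.04 and -1.78 on the nucARRB1 and -2.04 and -2.10 on the wtARRB1 arrays, against -0.14 to 0.26 on GFP and -0.44 to -0.12 on parental arrays. These 4 genes were picked for lying lower than GFP cells on these same arrays, so the depth of their mean follows from that choice. Of the 4 ARRB1 arrays, wtARRB1 replicate 2 had the lowest mean of these 4 genes and the mildest proliferation shift. The gap was small, -2.10 against -2.04 on nucARRB1 replicate 1 and on wtARRB1 replicate 1. The ATF4 list averaged 1.40 and 1.79 on the nucARRB1 and 1.78 and 1.76 on the wtARRB1 arrays, against -0.06 to 0.04 on GFP and 0.20 to 0.73 on parental arrays. Parental replicate 1 had the highest ATF4 mean of the control arrays and the lowest mean of ID1, ID2, ID3 and SMAD6. Among the ARRB1 arrays, nucARRB1 replicate 2 had the highest ATF4 mean (1.79) and the mildest mean of those 4 genes (-1.78). The part of either list in the difference of the ID genes and SMAD6 was not tested.

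**Figure D4:**
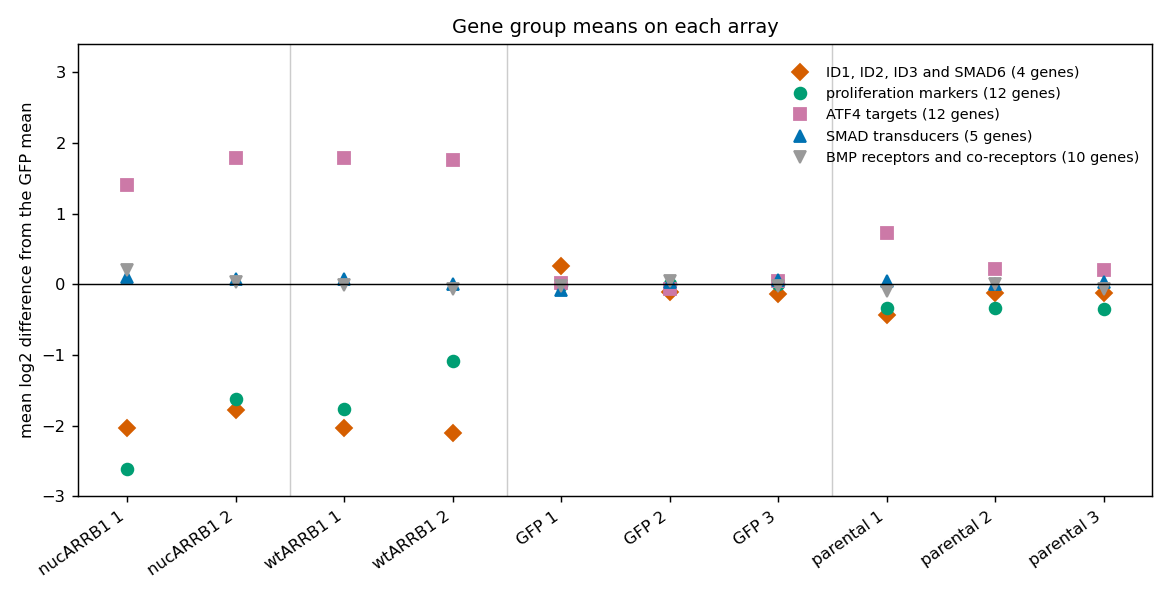
Mean log2 difference from the GFP group mean (y axis) on each of the 10 arrays (x axis) for ID1, ID2, ID3 and SMAD6 together, for 12 proliferation markers, 12 ATF4 targets, the 5 SMAD transducers and the 10 BMP receptors and co-receptors. The ID and SMAD6 mean lies between -1.78 and -2.10 on all ARRB1 arrays. Its genes were picked for lying lower than GFP cells on these same arrays, so its depth follows from that choice. The transducers and receptors, with all measured genes of their lists, stay within -0.09 and 0.20 on every array.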

How the data were processed

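BeadChip data were pre-processed by the authors in R with beadarray, who deposited log2 values per probe both before and after quantile normalisation; background correction is not given in the sources used here. The log2 table without normalisation was quantile normalised with limma 3.58.1 in R 4.3.3, and came within 0.0232 of the quantile-normalised log2 values of the authors. Empty columns of the deposited tables (80) were not used. Probes were named through the platform annotation and Entrez ID: 27576 had 1 symbol, 13 several, and 21212 were not named here. The probe with the highest mean over 10 arrays stood for each of 18664 genes, 5913 of which had several probes. No detection p was used, and arrays have no counting depth, so precision is limited by the number of arrays.

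Means of the 4 groups were estimated in one limma fit over the 10 arrays (lmFit, then eBayes, with 6 residual degrees of freedom and 9.82 from the prior). P-values were two-sided and adjusted over all 48801 probes by the Benjamini-Hochberg method, and genes were called at a false discovery rate of 1%. SE and 95% intervals are those of this fit. It was checked on simulated data. The labels number the replicates, and separate cultures are not stated. The paper shows several nucARRB1 cell lines, and whether the arrays of a group came from the same line is not stated either. P-values therefore measure the spread between these arrays. The numbers do not pair arrays.

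The 8 genes and all lists were chosen with earlier results of these data known. Besides these genes, the text names ARRB1, up to 2 risen and 2 fallen called genes per pathway list with groups that do not overlap, and the 6 genes most like and 3 most opposite to ID1 and ID3. Uncalled list genes, and those called against parental cells alone, were named after values were seen. Some genes of the lists are not reported here. Motifs were searched on both strands with Python 3.11.15, and plots made with matplotlib 3.10.9. Alternatives were the authors' table, median scaling, no normalisation, normexp, a filter on dim probes, the mean of all probes, only the groups compared, a replicate block, parental cells as control and leaving out arrays.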

Additional observations from a re-analysis of the deposited data

How the results depend on the processing

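Signs of ID1, ID2, ID3, SMAD6, SMAD7 and BAMBI relative to GFP were negative in both ARRB1 lines under each of 20 settings. In nucARRB1 cells ID1 ran from -2.84 to -1.49, ID3 from -3.21 to -2.55, ID2 from -1.18 to -0.65, SMAD6 from -1.23 to -0.94 and BAMBI from -1.24 to -0.04. In wtARRB1 cells ID1 ran from -3.42 to -1.88, ID3 from -2.95 to -2.30, ID2 from -1.98 to -1.33, SMAD6 from -1.15 to -0.81 and BAMBI from -1.03 to -0.19. SMAD9 changed sign in both lines. In the tested comparisons of the 8 genes the lowest limma adjusted p was 0.143 for nucARRB1 against wtARRB1 (ID3) and 0.0857 for GFP against parental (BAMBI).

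Genes called in nucARRB1 against GFP numbered 2027 (927 higher, 1100 lower); median scaling gave 512 higher and 1316 lower, and no normalisation gave 1337 (439 higher, 898 lower). In wtARRB1 against GFP there were 795 higher and 877 lower, and median scaling gave 345 higher and 1264 lower. Without normalisation the median of all genes was -0.12 in wtARRB1 against GFP and 0.13 in nucARRB1 against wtARRB1. Pathway genes called in nucARRB1 numbered 8, and 5 without normalisation or with the mean of all probes. In wtARRB1 they numbered 9, 5 with parental cells as control, and 15 without nucARRB1 replicate 1 and parental replicate 1, an alternative chosen after seeing the data. Genes called for GFP against parental (9) numbered 3 with median scaling or no normalisation, 2 with the filter on dim probes, 5 with the mean of all probes and 81 with only these groups, which also called 1 pathway gene. For nucARRB1 against wtARRB1 (12) they numbered 3 with median scaling, 5 without normalisation, with the filter or with the mean of all probes, and 1 with only these groups. The cause was not tested.

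Leaving out 1 array at a time gave 1281 to 2207 genes in nucARRB1 against GFP, 1013 to 2138 in wtARRB1 against GFP, 0 to 33 in GFP against parental and 3 to 243 in nucARRB1 against wtARRB1. Pathway genes ran from 6 to 11, 3 to 12, 0 to 1 and 0 to 2 in the same order, and members of the 8 genes past the threshold from 3 to 5, 4 to 5, 0 to 0 and 0 to 0. A line with 1 array left is assumed to vary like the other groups.

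Same-numbered arrays did not deviate together (correlations of -0.08 to 0.05). With the replicate number as a block, 5 pathway genes were called in wtARRB1 against GFP in place of 9, and the counts of the 8 genes past the threshold did not change.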
